A study of Mus with 18 samples.

Results

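The integrin subunits described here are 10 genes chosen by name, 5 that encode α subunits and 5 that encode β subunits, of 55416 gene IDs in the count tables. The α subunit genes are Itgav (ENSMUSG00000027087), Itga2 (ENSMUSG00000015533), Itga3 (ENSMUSG00000001507), Itga5 (ENSMUSG00000000555) and Itga6 (ENSMUSG00000027111). The β subunit genes are Itgb1 (ENSMUSG00000025809), Itgb4 (ENSMUSG00000020758), Itgb5 (ENSMUSG00000022817), Itgb6 (ENSMUSG00000026971) and Itgb8 (ENSMUSG00000025321). Their RNA was measured in lens epithelial cells (LECs) of C57BL/6 mice in 18 RNAseq libraries, 3 in each of 6 groups. Wildtype (WT), Egr1KO and FosBcKO mice were each sampled at 0 h and at 6 h PCS (post cataract surgery, the surgical removal of the lens fiber cells). Egr1KO mice carry a systemic knockout, a neo cassette in exon 2 of Egr1, and come from a stock of mixed strain background. FosBcKO mice lack exons 2 and 3 of Fosb where MLR10 cre, driven by an αA-crystallin promoter, is active, so cells outside the lens keep the gene. All mice were 3 to 5 months old, and each library pooled 5 capsules. One eye of a mouse was operated 6 h before the other and both capsules were then collected, so a 0 h capsule came from an animal whose other eye had been injured 6 h earlier.

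An integrin is a receptor made of 1 α and 1 β subunit that links the extracellular matrix to the cytoskeleton. The LEC rests on the lens capsule, a thick basement membrane, and laminin receptors of the β1 family are its main attachment to it. Fibronectin receptors and the αV integrins, some of which release active TGF-β from its latent complex, are known for their part in the response of these cells to lens injury.

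The libraries held 9609295 to 13871592 counts in genes. On the first principal component of log2 CPM, which held 43.6% of the variance, the Egr1KO 6 h replicate 1 library scored lowest among 6 h libraries (-4.70) and the WT 6 h replicate 3 library the highest (116). The WT 0 h replicate 2 library had the lowest summed level of leukocyte markers, 1.87 CPM (counts scaled to the gene total of the library), against at least 24.3 in every other library. Egr1 counts were not lower in Egr1KO (284.7, 106.5 and 170.9 CPM at 0 h) than in WT (164.7, 66.3 and 141.5), and Fosb counts at 6 h were 1745, 1430 and 1778 CPM in FosBcKO against 1539, 918 and 767 in WT. Counts of whole genes include exons that the knockouts keep, so these values do not check the genotype labels.

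Averaged over the 3 genotypes, 5 of the 10 integrin subunits changed between 0 h and 6 h PCS at an FDR of at most 0.05 (edgeR quasi-likelihood F-test on all 18 libraries), where 52.3% of all genes tested did (29.6% higher and 22.7% lower). Itga5 rose 3.98-fold, and Itga3, Itga6, Itgb5 and Itgb8 fell by 0.39, 0.64, 0.57 and 0.73 on the log2 scale. Itgav, Itga2, Itgb1, Itgb4 and Itgb6 did not pass the test. The median log2 fold change was -0.22 over the 10 subunits and 0.08 over all genes tested, and Itga5 was the single called subunit past 2-fold, where 22.5% of all genes tested were. In bulk RNA, fewer cells of a type and less RNA per cell cannot be told apart.

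**Figure D1:**
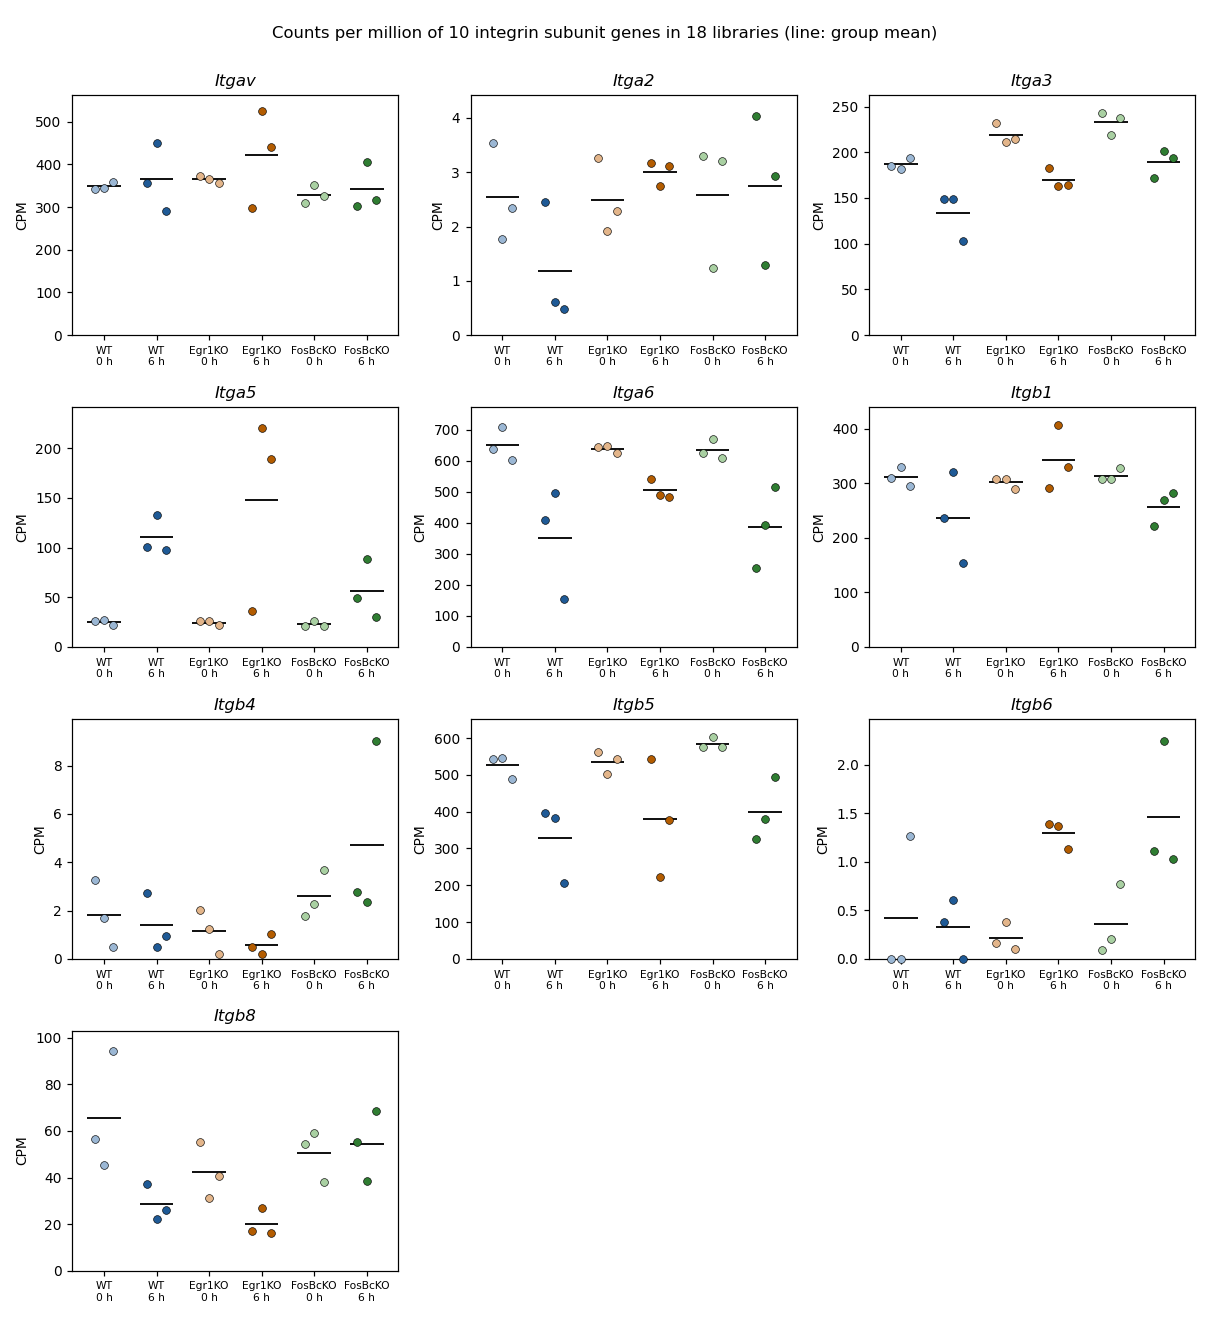
CPM (vertical axis, from 0) of each integrin subunit gene in the 18 libraries, by genotype and time; points are libraries and lines are group means. Itga5 is higher in every 6 h library than in the 0 h libraries of its genotype, and Itga3 and Itga6 are lower in every 6 h library.

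The fibronectin receptor subunit α5, which pairs with β1, had the largest averaged change of the 10. In WT, Itga5 measured 26.4, 27.6 and 22.6 CPM at 0 h and 100.5, 133 and 97.1 CPM at 6 h. In Egr1KO it measured 26.1, 25.7 and 21.7 CPM at 0 h and 36.1, 220.3 and 189 CPM at 6 h. In FosBcKO it measured 21.4, 26.5 and 21.6 CPM at 0 h and 49.5, 88.7 and 29.7 CPM at 6 h. The groups did not overlap in any genotype, but the Egr1KO replicate 1 and FosBcKO replicate 3 libraries lay close to their 0 h range, and in each FosBcKO library at 6 h Itga5 was below the lowest WT library. The change in log2 was 2.01 ± 0.20 (SE, n = 3 per group) in WT (edgeR adjusted p = 0.00127), 2.63 ± 0.56 in Egr1KO with an adjusted p of 0.0181, and 1.30 ± 0.40 in FosBcKO with an adjusted p of 0.0543. The rise in WT and the averaged rise passed the test in each of the 17 and 27 alternatives tried, and that in Egr1KO in 11 of 17.

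Whether the rise of Itga5 differed between genotypes was tested as an interaction of time and genotype on all 18 libraries. The difference from WT in log2 was 0.60 ± 0.69 for Egr1KO (adjusted p = 0.884) and -0.76 ± 0.70 for FosBcKO (adjusted p = 0.874), and neither passed the test. At 6 h, Itga5 was lower in FosBcKO than in WT by 0.83 in log2 with an edgeR exact test adjusted p of 0.303.

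The laminin receptor subunits α3 and α6 were lower at 6 h in every genotype. Itga3 measured 185, 182 and 194 CPM in WT at 0 h and 149, 149 and 103 CPM at 6 h, and in Egr1KO 232, 211 and 214 CPM became 183, 163 and 165 CPM. In FosBcKO it measured 243, 219 and 237 CPM at 0 h and 171, 202 and 194 CPM at 6 h. The 0 h and 6 h libraries did not overlap in any genotype, which also held for 48.0% of all genes tested in WT, 43.3% in Egr1KO and 42.9% in FosBcKO, and the single genotype tests gave adjusted p of 0.0684, 0.134 and 0.181 in edgeR. The averaged change of -0.39 ± 0.10 in log2 had an adjusted p of 0.00321. Before and after surgery Itga3 was higher in both knockouts than in WT with no overlap, by 0.25 and 0.32 in log2 at 0 h, and at 6 h by 0.55 and 0.62, but none of these passed the test (adjusted p from 0.227 to 0.851). At 0 h 16.5% of all genes tested in Egr1KO and 14.2% in FosBcKO had no overlap with WT, and at 6 h 16.9% and 21.8%.

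Itga6, which pairs with β1 or, in hemidesmosomes, with β4, measured 637, 709 and 602 CPM in WT at 0 h and 408, 495 and 154 CPM at 6 h. In Egr1KO it measured 645, 648 and 624 CPM at 0 h and 542, 489 and 483 CPM at 6 h, and in FosBcKO 624, 671 and 609 CPM at 0 h and 256, 392 and 516 CPM at 6 h. Again no 6 h library reached the 0 h range of its genotype, and the WT replicate 3 library was the lowest of all. The averaged change was -0.64 ± 0.19 in log2 (adjusted p = 0.00956), and the changes in WT, Egr1KO and FosBcKO had adjusted p of 0.120, 0.160 and 0.0597. The summed level of the 5 lens epithelium markers found of 8 was also lower at 6 h in every genotype, at 2097 to 2369 CPM in the 0 h libraries and 963 to 2107 CPM in the 6 h libraries. The markers did not move as one: 3 fell and 1 rose in the averaged test. In WT, mean Prox1 went from 996 to 374 CPM and mean Gja1 from 319 to 388 CPM, and the Gja1 mean was higher at 6 h in both knockouts too. The WT 6 h replicate 3 library had the lowest sum of the lens epithelium markers and, within WT, the highest sums of ciliary and pigmented epithelium markers (408 CPM) and of endothelial markers (117 CPM). The part of the cell makeup in the lower Itga3 and Itga6 values was not tested. Itga2, the collagen receptor subunit, was measured by 5 to 47 counts per library and by 0.477 to 4.04 CPM, and all 6 groups overlapped with others of the same genotype. No change in it passed the test.

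Itgb1, the shared partner of α2, α3, α5 and α6, measured 310, 331 and 296 CPM in WT at 0 h and 237, 321 and 153 CPM at 6 h, with overlap. It measured 309, 308 and 290 CPM at 0 h and 292, 407 and 330 CPM at 6 h in Egr1KO, and 307, 308 and 328 CPM at 0 h and 222, 269 and 282 CPM at 6 h in FosBcKO. The averaged change of -0.17 ± 0.13 in log2 did not pass the test (adjusted p = 0.278). Itgb4, the hemidesmosomal partner of α6, was measured by 2 to 105 counts per library. Its highest value, 9.03 CPM, came from the FosBcKO 6 h replicate 3 library, in which the corneal epithelial keratins Krt5 and Krt12 were also highest, at 101.4 and 197.6 CPM. The sum of all 4 corneal markers found was not highest there: it was 989 CPM, against 1738 CPM in the Egr1KO 0 h replicate 1 library, where Itgb4 measured 2.04 CPM. The part of corneal cells in the Itgb4 value was not tested.

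The αV integrins have fibronectin and vitronectin receptors and activators of latent TGF-β among them. Itgav, their α subunit, measured 343, 344 and 359 CPM in WT at 0 h and 357, 450 and 291 CPM at 6 h. The averaged change was 0.11 ± 0.12 in log2 (adjusted p = 0.459), and 0 h and 6 h libraries overlapped in all 3 genotypes. Itgb5, which forms the vitronectin receptor αVβ5, measured 544, 546 and 489 CPM in WT at 0 h and 397, 383 and 208 CPM at 6 h. In Egr1KO it measured 561, 502 and 544 CPM at 0 h and 542, 223 and 378 CPM at 6 h, and in FosBcKO 577, 602 and 575 CPM at 0 h and 325, 380 and 494 CPM at 6 h. In WT and FosBcKO the times did not overlap, and in Egr1KO the replicate 1 library at 6 h stayed within the 0 h range. The averaged change of Itgb5 was -0.57 ± 0.17 in log2 (adjusted p = 0.0103).

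Itgb6, the β subunit of the latent TGF-β activator αVβ6, was near the limit of detection. Its counts were 0, 0 and 13 in WT at 0 h and 4, 6 and 0 at 6 h, and it was not tested in WT after the filter on low counts. In Egr1KO they were 2, 4 and 1 at 0 h and 14, 19 and 12 at 6 h, and in FosBcKO 1, 2 and 8 at 0 h and 13, 26 and 12 at 6 h. In both knockouts every 6 h library exceeded every 0 h library. The rise passed the test in Egr1KO (2.58 ± 0.75 in log2, adjusted p = 0.0433) and did not in FosBcKO (2.02 ± 0.91, adjusted p = 0.134). In both knockouts Itgb6 met the filter on low counts only through its 6 h libraries. The filter thus favoured a rise, and the missing overlap and the call are no independent support for one. The call in Egr1KO was lost in 11 of 17 alternatives. Among them were the fit with no filter and that without the Egr1KO 6 h replicate 1 library (edgeR adjusted p = 0.0750). The interaction with WT was 2.95 ± 1.84 (adjusted p = 0.815).

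Itgb8, the β subunit of another latent TGF-β activator, αVβ8, fell in WT and Egr1KO and did not pass the test in FosBcKO. In WT it measured 56.5, 45.2 and 94.3 CPM at 0 h and 37.3, 22.3 and 26.02 CPM at 6 h. In Egr1KO it measured 55.2, 31.4 and 40.8 CPM at 0 h and 16.9, 27.0 and 16.4 CPM at 6 h. In FosBcKO it measured 54.3, 59.0 and 38.0 CPM at 0 h and 55.3, 38.6 and 68.6 CPM at 6 h. Itgb8 fell in WT by 1.29 in log2 (SE 0.30, adjusted p = 0.0174) and in Egr1KO by 1.04 (SE 0.26, adjusted p = 0.0278), with no overlap, and in FosBcKO the times overlapped (0.10 ± 0.21 in log2, adjusted p = 0.751). The fall in WT had an adjusted p of 0.0570 without the WT 6 h replicate 2 library and 0.0924 without replicate 3. In Egr1KO the adjusted p was 0.108 without the 0 h replicate 1 library, 0.0930 without 0 h replicate 3 and 0.102 without 6 h replicate 3. The interaction of time and genotype between FosBcKO and WT was 1.34 ± 0.41 in log2, with an unadjusted p of 0.00425 and an adjusted p of 0.505, so a difference in the response was not shown across all genes tested.

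**Figure D2:**
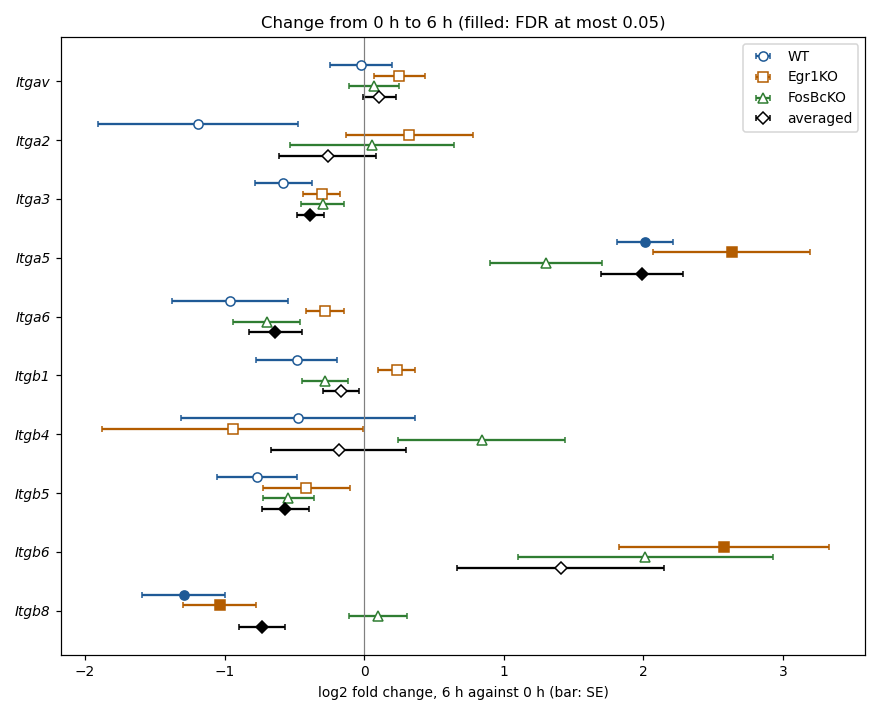
Log2 fold change of each subunit from 0 h to 6 h PCS in WT, Egr1KO and FosBcKO and averaged over them; bars are SE, and filled symbols had an FDR of at most 0.05. Itga5 lies to the right of 0 in each genotype, and Itgb8 lies to the left in WT and Egr1KO and at 0.10 in FosBcKO.

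Counted by genotype, 2 of the 9 subunits tested changed in WT (1 higher and 1 lower) where 26.2% of all genes tested did (16.5% higher and 9.72% lower), 3 of 10 in Egr1KO (2 higher and 1 lower) where 21.2% did (12.1% higher and 9.04% lower), and 0 of 10 in FosBcKO where 21.8% did. In FosBcKO 4 subunits had an unadjusted p under 0.05 by edgeR's quasi-likelihood test, where 37.3% of all genes tested had, and DESeq2 called 3, Itga5, Itga6 and Itgb5, where it called 27.1% of all genes. With the replicate number as a block the same 3 passed in FosBcKO, where 29.3% of all genes did. Same-numbered WT libraries deviated together from their group means, and with the replicate number as a block 5 subunits passed in WT, 1 higher and 4 lower, where 30.6% of all genes did. Those were Itga5 (adjusted p = 4.3e-05), Itgb8 (0.00631), Itga6 (0.0255), Itgb5 (0.0270) and Itga3 (0.0443). Single libraries moved the Egr1KO count, and the share of all genes called moved with it. With Egr1KO 6 h replicate 1 left out, 6 subunits and 33.9% of all genes passed, with Itgav (0.41 in log2) and Itga5 higher and Itga3, Itga6, Itgb5 and Itgb8 lower, and without the 0 h replicate 1, the 0 h replicate 3 or the 6 h replicate 3 library no subunit did and 6.08%, 3.94% and 6.69% of all genes did.

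The knockouts were then compared with WT at each time. In Egr1KO, 0 of 9 subunits differed from WT at 0 h and 0 of 10 at 6 h by the edgeR exact test, where 0.543% and 0.743% of all genes tested did. At an unadjusted p under 0.05 these counts were 0 and 3 (Itga2, Itgb1 and Itgb6), where 6.40% and 9.67% of all genes passed, and DESeq2 called 0 at both times. Of these, Itga2 was 2.91-fold higher in Egr1KO with no overlap (unadjusted p = 0.0357, adjusted p = 0.450 in edgeR's exact test). Itga2 and Itgb6 met the filter on low counts there only with the Egr1KO libraries, in which they were higher. Without the Egr1KO 6 h replicate 1 library, Itga5 was higher in Egr1KO than in WT at 6 h by 1.07 in log2 (adjusted p = 0.0302). In FosBcKO, 0 of 9 subunits differed at 0 h, where 0.392% of all genes tested did. Itga3 had an unadjusted p under 0.05, as had 5.62% of all genes, and DESeq2 called 0. Neither interaction called a gene, with 0% of all genes tested called and 1 subunit each at an unadjusted p under 0.05, Itgb1 for Egr1KO and Itgb8 for FosBcKO, where 6.53% and 6.70% of all genes had one.

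At 6 h, 1 of 10 subunits differed between FosBcKO and WT, where 6.26% of all genes tested did (5.17% higher), and 5 had an unadjusted p under 0.05, where 16.5% of all genes had. Those 5 were Itga3, Itga5, Itgb4, Itgb6 and Itgb8. Itgb4 and Itgb6 met the filter on low counts there only with the FosBcKO libraries, in which their means were higher. The filter thus favoured their difference, and they are no independent support for an excess. The called subunit was Itgb8, 2.05-fold higher in FosBcKO with no overlap (1.04 ± 0.27 in log2, edgeR exact test adjusted p = 0.0167). The call depended on the test: by edgeR's quasi-likelihood test on the same 6 libraries the adjusted p was 0.0905, and it was lost in 7 of 17 alternatives, among them those without the WT 6 h replicate 2 (0.123), the WT 6 h replicate 3 (0.106) and the FosBcKO 6 h replicate 3 library (0.146). On counts simulated for this comparison, more of the exact test's calls were false than its FDR allows, and fewer were with the quasi-likelihood test. At 0 h Itgb8 was 0.38 lower in log2 in FosBcKO with overlap (adjusted p = 1).

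Markers of some other eye cells differed between FosBcKO and WT at 6 h as well. The 10 ciliary and pigmented epithelium markers found of 13 summed to 494 to 573 CPM in FosBcKO and to 180 to 408 CPM in WT, and 5 of them passed the exact test, all higher. Slc6a13 measured 109, 94.0 and 79.9 CPM against 12.1, 3.33 and 9.15 CPM in WT, while the means of Otx2 (26.7 against 49.9 CPM) and Rlbp1 (59.1 against 90.8 CPM) lay the other way and did not pass. The 9 leukocyte markers found of 14 summed to 101.5 to 111 CPM against 24.3 to 44.1 CPM, with 7 higher. Among those 7 was Itgam, which met the filter on low counts only through the FosBcKO libraries. Of all genes tested, 5.17% were higher in FosBcKO by the exact test. Marker names were found for only part of each list and more often for changed genes. The marker counts and sums are thus partly set by which markers were found, and are not a test of the cell makeup. No corneal, endothelial, smooth muscle or lens epithelium marker passed. The sums of the 4 corneal markers found overlapped (378 to 989 CPM in FosBcKO and 370 to 877 CPM in WT), as did those of the 3 endothelial markers (29.9 to 96.2 CPM and 47.9 to 117 CPM), and the lens epithelium markers summed to 1460 to 2107 CPM against 963 to 1389 CPM. Their part in the Itgb8 difference was not tested.

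**Figure D3:**
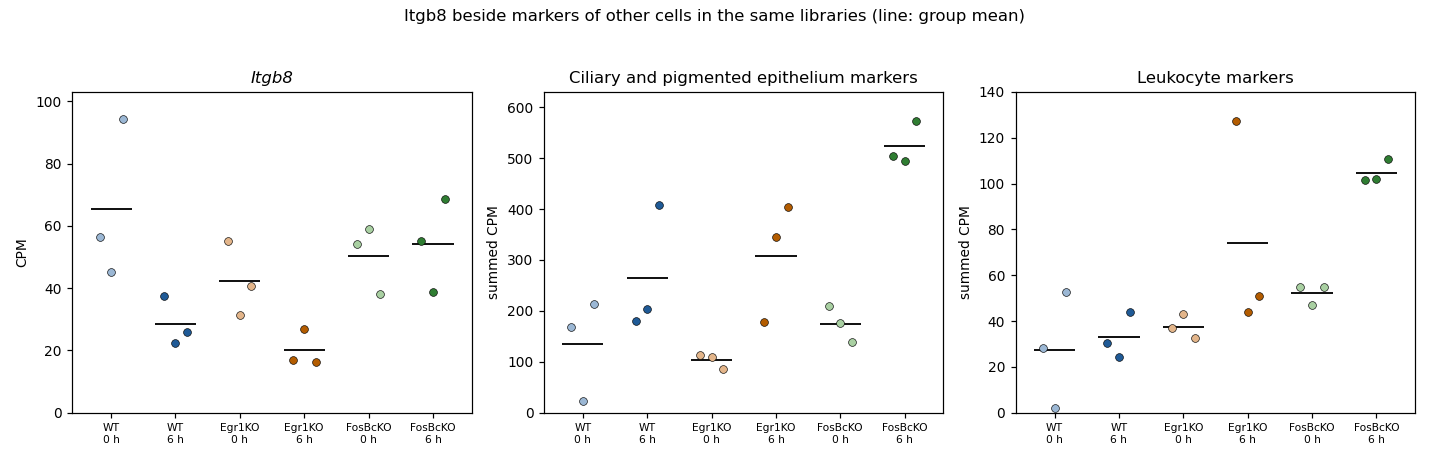
CPM of Itgb8 (left) and summed CPM of the ciliary and pigmented epithelium markers (middle) and leukocyte markers (right) in each library, axes from 0, lines at group means. At 6 h the 3 FosBcKO libraries lie above the 3 WT libraries in all panels.

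Because an α and a β subunit act as a pair, the ratio of the counts of 9 partner pairs was taken within each library, which needs no scaling between libraries, and so was that of Itgb8 to Itgb6, the β subunits of the TGF-β activators. The ratio counts read pairs and not molecules, so only its change is given, tested by an exact two-sided permutation test of the times within genotypes whose smallest p is 0.00025. The ratio changed at 6 h for 6 of the 9 pairs and for Itgb8 to Itgb6 after adjustment over the 10 ratios. Ratios of other gene pairs were not taken as a background, and 52.3% of all genes tested changed over time. The ratios share genes with each other and with the calls above, so this count is not a separate result about pairing. Itga5 rose 4.04-fold against Itgb1 and Itga6 fell against it by 0.52 in log2, both with an exact permutation p of 0.00025, the smallest possible, and an adjusted p of 0.00125. Neither ratio overlapped between times in any genotype.

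Within the αV pairs, Itgav rose against Itgb5 by 0.71 in log2 (exact permutation, adjusted p = 0.0117), against Itgb8 by 0.80 (adjusted p = 0.0163) and against Itgb1 by 0.28 (adjusted p = 0.0163). By genotype the change against Itgb8 was 1.21 (WT), 1.24 (Egr1KO) and -0.05 (FosBcKO), and that against Itgb1 was 0.51, -0.0030 and 0.34 in the same order. Itgb8 fell against Itgb6 by 2.53 in log2 and Itgav fell against Itgb6 by 1.73 (adjusted p = 0.0150 and 0.0379), both resting on at most 26 Itgb6 counts in a library. With same-numbered libraries as pairs, the ratios of Itgav to Itgb1, Itgb6 and Itgb8 and of Itgb8 to Itgb6 no longer passed (exact sign flip permutation, adjusted p = 0.0547, 0.112, 0.0651 and 0.0547). Deviations of same-numbered libraries from their group means correlated above 0.1 in every pair in WT, and in FosBcKO at r = 0.160, 0.0776 and 0.181. The ratios of Itga6 to Itgb4, Itga3 to Itgb1 and Itga2 to Itgb1 did not pass (adjusted p = 0.338, 0.103 and 0.681).

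**Figure D4:**
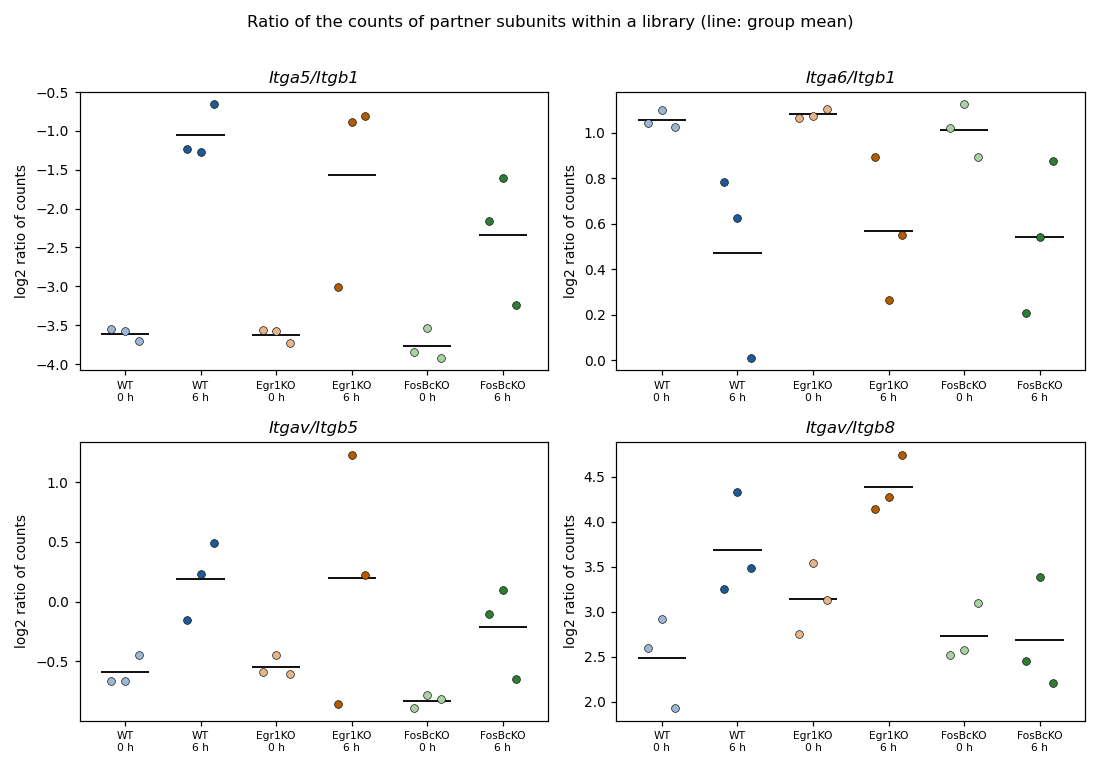
Log2 ratio of the counts of partner subunits within each library for 4 pairs, with lines at group means. At 6 h Itga5/Itgb1 is higher and Itga6/Itgb1 lower than at 0 h in every library of each genotype, and Itgav/Itgb8 is higher in WT and Egr1KO and overlaps between times in FosBcKO.

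Genes that work with integrins were read from lists, for which gene names were found for only part of the genes and more often for changed ones, so the counts are not shares of a pathway. In the averaged test 29.6% of all genes tested were higher and 22.7% lower. Of 5 other integrin subunits found of 17, 3 rose in the averaged test and none fell. Itga7, a laminin receptor subunit, rose 2.65 in log2, Itga2b, the platelet fibrinogen receptor subunit, 1.53, and Itgb3, its partner, 1.93. Itgb3 was near the limit of detection, at no more than 0.892 CPM in any 0 h library. It met the filter on low counts only through 6 h libraries, so the filter favoured its rise. Of 14 adaptors found of 30, 8 rose and 2 fell, among them Vcl (vinculin, 1.75 in log2), Fermt3 (a kindlin that activates integrins, 1.65), Tln1 (talin, -0.23) and Tns2 (a tensin, -0.47). Of 6 hemidesmosome partners found of 7, 3 rose, among them the collagen Col17a1 (3.56) and the linker Dst (0.57). Col17a1 was near the limit of detection at 0 h, with means of 0.851 (WT), 0.379 (Egr1KO) and 0.227 CPM (FosBcKO). It met the filter on low counts only with 6 h libraries, so the filter favoured its rise.

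Of 13 ligands found of 28, 7 rose and none fell, among them Thbs1 (3.15 in log2) and Ccn1 (3.05), both matricellular proteins, and, with the smallest rises, Lama5 (0.42) and Ccn2 (0.51). Fn1, the fibronectin that α5β1 binds, rose 0.87 ± 0.27 in the averaged test (adjusted p = 0.0150 in edgeR). In WT the times overlapped, at 16.2 to 66.6 CPM at 0 h and 27.8 to 53.4 CPM at 6 h, with means of 33.1 and 37.6 CPM. The mean went from 10.7 to 32.2 CPM in Egr1KO and from 17.0 to 31.4 CPM in FosBcKO, with no overlap. Of 10 genes of the latent TGF-β axis found of 12, 5 rose and 1 fell, among them Tgfbi (2.64), Smad7 (0.26) and Tgfb3 (-1.34). Between FosBcKO and WT at 6 h, 4 ligands, 4 genes of the TGF-β axis, 2 adaptors and 1 other integrin subunit were higher by the exact test, whose calls carry the limit given for Itgb8, and none was lower. By that test 5.17% of all genes tested were higher. The ligands were Fbn1 (3.63 in log2), Col1a2 (3.46), Nid2 (3.40) and Lamb2 (0.88). The genes of the TGF-β axis were Ltbp2 (3.42), Ltbp1 (1.88), Ltbp3 (1.14) and Tgfb3 (1.02), and the adaptors were Tns2 (1.82) and Dab2 (1.69). The other integrin subunit was Itgam (3.68), a leukocyte subunit at 0.951 to 1.72 CPM in FosBcKO and 0 to 0.191 CPM in WT. Itgam met the filter on low counts only through the FosBcKO libraries, so the filter favoured its call. Egr1KO was higher than WT at 6 h in 2 ligands, Fbn1 (1.87) and Col1a2 (1.70), and in Ltbp2 (1.72) and Ltbp1 (1.41), where 0.743% of all genes tested differed.

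Genes with profiles most like those of 2 subunits were found by the smallest root mean square difference in centred log2 CPM over the 18 libraries, among 5677 named genes. For Itga5 the 3 nearest were Nabp1 (0.267), Zswim4 (0.270) and Hmga1 (0.288), and for Itgb8, the subunit with the lowest averaged change, they included Zfp982 (0.392) and Myh14 (0.406).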

How the data were processed

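Per the labels and the study, RNA was depleted of ribosomal RNA, made into strand-specific libraries and sequenced as pairs. Hisat2 aligned the pairs, and HTSeq-count (union) assigned them to Ensembl genes. The counts deposited by the authors are raw, without scaling. The study's text names the GRCm38 build and the submitters' processing notes GRCm39, so no coordinates are given. HTSeq summary lines (34.4% to 48.0% of read pairs per library) were left out of totals and tests. Subunit IDs were given with the gene set, and other names came from ID and symbol columns of the study's tables, which held part of the genes.

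CPM is the count divided by the library's gene total. Tests used edgeR 4.0.16 (R 4.3.3) with filterByExpr, TMM scaling and robust dispersions: the quasi-likelihood F-test for 6 h against 0 h, for the average and for interactions, and the exact test between genotypes, as in the study's methods, on the 6 libraries of the contrast. SEs are from the quasi-likelihood fit. FDR was adjusted over all genes tested, with a threshold of 0.05. Ratios added 0.5 counts to each gene. DESeq2 1.42.0, other filters, scalings, a replicate block and leaving out libraries were alternatives. The tests were tested on simulated data, where the exact test made more false calls than its FDR allows. Deviations of same-numbered 0 h and 6 h libraries correlated in WT (r = 0.102, 0.230 and 0.247), where every pair exceeded 0.1. They were 0.160, 0.0776 and 0.181 in FosBcKO and 0.0198, 0.146 and 0.0200 in Egr1KO. Both capsules of a mouse were collected together, so the times may be paired in every genotype. The main tests over time did not use a pairing, and the replicate block was an alternative. Each library is a separate pool per the labels.

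The subunits, gene lists and tests were chosen with earlier results of these data known. All 10 subunits are named, the targeted genes are given, and from each list the 2 highest and 2 lowest changes among those that passed with an average log2 CPM of at least 1; Itgb3, Itgam, Fn1, Slc6a13, Otx2 and Rlbp1 were added after their values were seen. Some genes that this rule names are not reported here. Of 10 subunits, 9 passed the filter on low counts in WT and 10 in the knockouts over time, Itgb6 only through its 6 h libraries.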

Additional observations from a re-analysis of the deposited data

How the results depend on the processing

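No called subunit reversed its direction under any alternative. The 5 calls of the averaged test passed in all 27 alternatives. In WT the count of 2 became 5 with the replicate block, 5 with DESeq2, 4 with no filter, 4 with one fit of all 18 libraries and 3 with the exact test, and 1 to 4 when each library was left out (1 without WT 6 h replicate 2, 4 without replicate 3). In Egr1KO the count of 3 became 1 with the replicate block, 1 with no filter and 2 with one fit of all libraries, and 0 to 6 when each library was left out. The share of all genes called in Egr1KO moved from 21.2% to 19.3%, 12.9% and 24.4% in the same order. It was 3.94% to 33.9% when each library was left out. In FosBcKO the count of 0 became 3 with the replicate block, DESeq2 or no filter, 1 without the robust option and 2 with the exact test, and 0 to 3 when each library was left out (1 without FosBcKO 6 h replicate 1, 3 without replicate 3). For FosBcKO against WT at 6 h the count of 1 became 0 with the replicate block, the quasi-likelihood test and one fit of all libraries, and 0 to 2 when each library was left out (2 without WT 6 h replicate 1 or FosBcKO 6 h replicate 2). The share of all genes called there fell from 6.26% to 0.532%, 2.87% and 2.46% in the same order. It was 4.45% to 7.68% when each library was left out. For Egr1KO against WT at 6 h the count of 0 became 0 to 1 when each library was left out. The share of all genes called, 0.743% in the main fit, was then 0.281% to 5.9%. The interaction for FosBcKO became 1 with no filter (Itgb8, edgeR adjusted p = 0.00344), where 406 of 35202 genes (1.15%) were called. This was 1 of 27 alternatives, and the adjusted p with the filter was 0.505 in the main fit. Over all genes tested, the share called moved from 26.2% in WT to 30.6% with the block, 32.3% with DESeq2, 15.5% with no filter, 26.1% with one fit and 30.5% with the exact test. In FosBcKO it moved from 21.8% to 29.3% with the block, 27.1% with DESeq2 and 25.7% with the exact test. With no filter it fell there to 13.3%, while the subunit count was 3, and without the robust option it was 21.6%. When each library was left out the share was 13.1% to 25.1% in WT and 6.73% to 28.2% in FosBcKO. The cause of these changes was not tested.

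Chosen after seeing the data, 2 further alternatives each left out a pair of libraries, the second added after the counts of the first were known. Without WT 6 h replicate 3 and Egr1KO 6 h replicate 1 the counts were 4 in WT, 6 in Egr1KO, 1 for Egr1KO and 0 for FosBcKO against WT at 6 h. In the same order, 24.3%, 33.9%, 1.59% and 5.6% of all genes tested were called. Without WT 0 h replicate 2 and Egr1KO 6 h replicate 1 the counts were 2, 6, 1 and 1. The shares of all genes called were then 14.5%, 33.9%, 1.18% and 6.26%. With the replicate block, as exact sign flips of 9 same-numbered differences, the ratios Itgav/Itgb1 (0.28, adjusted p = 0.0547), Itgav/Itgb6 (-1.73, 0.112), Itgav/Itgb8 (0.80, 0.0651) and Itgb8/Itgb6 (-2.53, 0.0547) no longer passed. When each library was left out, Itgav/Itgb6 ranged from -2.26 to -1.45 and Itga3/Itgb1 from -0.25 to -0.15. The block changed no other call beyond those given. Low counts per library limit Itga2 (5 to 47), Itgb4 (2 to 105) and Itgb6 (0 to 26).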
